A study of Rattus norvegicus with 16 samples.

Results

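The line by region interaction asks of each microRNA (miRNA) whether the difference between 2 rat lines has another size or sign in the amygdala than in the dorsal raphe. It was computed as the line difference in amygdala minus the line difference in dorsal raphe, each on the log2 scale as high responder (HR) minus low responder (LR). All 16 of the 16 small RNA libraries of the series entered, and 639 of the 722 miRNAs listed passed the filter on low counts. The 4 groups were dorsal raphe of LR rats, dorsal raphe of HR rats, amygdala of LR rats and amygdala of HR rats, with 4 libraries each, all from rats of 60 days. The labels name no treatment. HR and LR rats are lines selectively bred for a high or a low locomotor response to a new environment, so a line difference can be any heritable difference between these colonies. Nothing in the labels says whether a sample is 1 rat or a pool, or whether the 4 samples of a group are separate rats. Nor do the labels say whether both regions came from the same rats. The p-values below then reflect only the spread among these libraries, which may be technical.

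A miRNA is a short RNA that guides Argonaute proteins to messenger RNAs and lowers their translation and stability. Its target choice rests mostly on the seed, and 1 hairpin can give a mature miRNA from each arm, marked 5p and 3p. The dorsal raphe is the midbrain nucleus that supplies most of the forebrain's serotonin, and the amygdala is a group of forebrain nuclei that act in fear and in emotional memory. The amygdala receives dense serotonin input from the dorsal raphe.

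Levels are counts per 1000000 (CPM) after scaling of the libraries with TMM factors (trimmed mean of M values). The libraries held 1741167 to 8134915 counts, so that 3 counts, the floor used here, stood for 0.396 to 2.40 scaled CPM by counting error alone. The region labels were checked with miR-10b-5p, a miRNA of the Hox clusters that marks hindbrain and spinal cord. It stood at 240.1 to 2610.3 CPM in the 8 dorsal raphe libraries and at 6.29 to 53.8 CPM in the 8 amygdala libraries. The top value came from 1 LR dorsal raphe library, and the next highest of that group was 272 CPM. HR dorsal raphe reached 316 CPM. Without replicate 4 of LR dorsal raphe the interaction of miR-10b-5p was 0.71, against 2.57 with all libraries. Replicate 4 of LR dorsal raphe and replicate 1 of HR amygdala stood apart from their groups. They held 2096188 and 1741167 counts, and their log2 levels deviated from their group means by a root mean square of 1.03 and 0.97, against 0.28 to 0.88 in the other 14 libraries. The TMM factor of LR dorsal raphe 4 was 0.596, against 0.870 to 1.27 in the other 15. Over the 639 miRNAs the deviations of these 2 libraries had a Pearson correlation of 0.57, and both of their groups enter the interaction with a plus sign. The main results below are therefore also given without both libraries.

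The mature sequences of the miRNAs that the results turn on are shown with the seed, bases 2 to 8, in capitals. They come from RefSeq (GRCr8), which held 18 of the 24 miRNAs named for the interaction. The first set had low p-values for the interaction, or, for miR-148b-3p, a negative interaction beside a miRNA of the same seed that did not share it. It is not the set of lowest p, since let-7b-3p, with a lower p than miR-22-3p, is in the second set. miR-370-3p and miR-125b-1-3p shared their seed with no other miRNA described here.
miR-370-3p: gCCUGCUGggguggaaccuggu
miR-125b-1-3p: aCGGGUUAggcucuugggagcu
miR-22-3p: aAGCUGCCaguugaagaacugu
miR-148b-3p: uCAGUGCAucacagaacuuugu
miR-152-3p: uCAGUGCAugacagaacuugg

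A second set shows pairs of miRNAs that share a seed and both had a positive interaction with an unadjusted p of 0.05 or less. miR-204-5p and miR-211-5p differ at few bases, as do miR-99b-5p and miR-100-5p. The sources used here do not give how reads that match several miRNAs were counted, so the split of reads between such near copies is uncertain.
miR-204-5p: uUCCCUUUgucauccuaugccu
miR-211-5p: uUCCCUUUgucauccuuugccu
miR-99b-5p: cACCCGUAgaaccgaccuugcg
miR-100-5p: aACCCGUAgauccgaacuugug
let-7b-3p: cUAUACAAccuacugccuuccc
let-7f-1-3p: cUAUACAAucuauugccuucc

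In edgeR's quasi-likelihood test over all 16 libraries, 0 of 639 miRNAs (0%) had an interaction at an adjusted p of 0.05 or less. At an unadjusted p of 0.05 or less there were 81 miRNAs, 12.7% of those tested, of which 67 (10.5%) were positive and 14 (2.19%) negative. Positive means that the HR minus LR difference was higher in amygdala than in dorsal raphe. DESeq2 called 22 miRNAs at an adjusted p of 0.05, 18 positive and 4 negative, limma-voom called 0, and limma-voom with a weight for each library called 8. Without LR dorsal raphe 4 and HR amygdala 1, edgeR called 3, namely miR-370-3p, miR-22-5p and miR-22-3p, all positive. In bulk tissue, fewer cells of a type and less RNA per cell cannot be told apart, here or in any result below.

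The line difference had opposite signs in the 2 regions for 339 of 639 miRNAs (53.1%). Without LR dorsal raphe 4 alone this was 266 of 663 miRNAs (40.1%), and 60 of the 81 miRNAs of low interaction p had opposite signs, while without both libraries it was 344 of 648 (53.1%). Of the 339, 207 were higher in HR amygdala and lower in HR dorsal raphe, and the rest the other way round. Of the 300 with the same sign, 157 were lower and the rest higher in HR rats. Across the 639 miRNAs the line differences of the 2 regions had a Pearson correlation of -0.06 and a Spearman correlation of -0.09, as a description of miRNAs that share the same 16 libraries. All 81 miRNAs of low interaction p had opposite signs, a pattern that the choice by interaction p favours. Among the 81, the line difference itself had an unadjusted p of 0.05 or less in both regions for 7, in amygdala alone for 32, in dorsal raphe alone for 33 and in neither for 9. Of the 14 negative ones, 12 passed in amygdala alone. Over all miRNAs tested the same threshold was passed by 65 (10.2%) in amygdala and 70 (11.0%) in dorsal raphe, and 0 passed after adjustment in either region. Without LR dorsal raphe 4 the dorsal raphe count was 23.

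**Figure D1:**
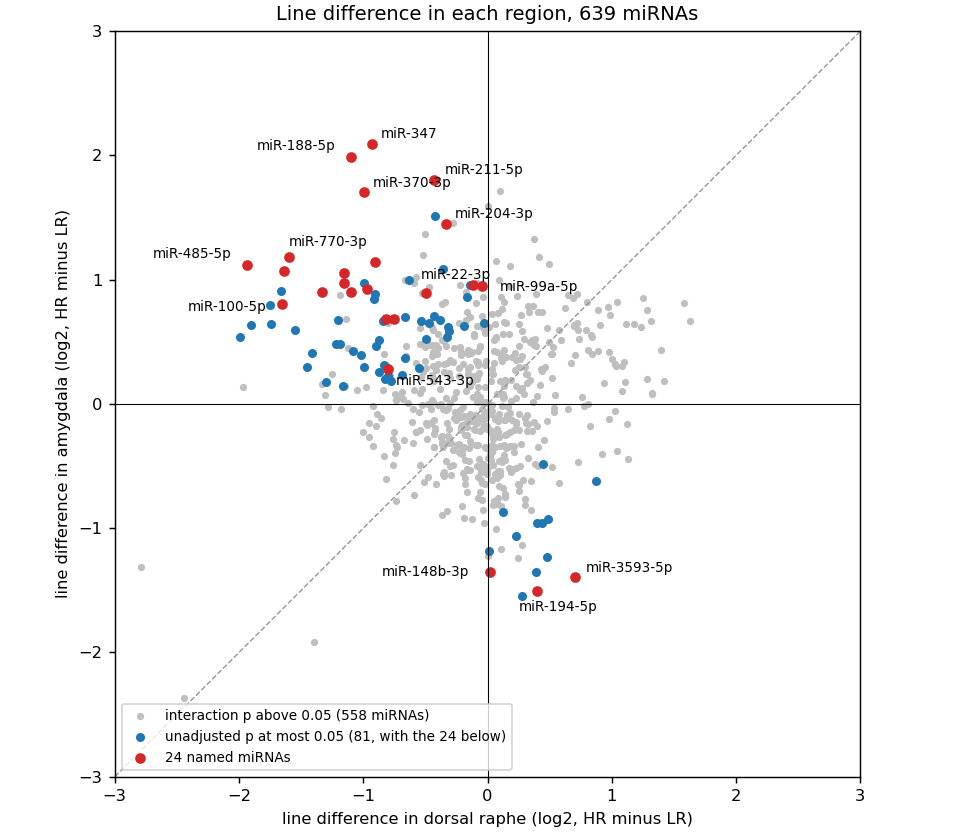
Each point is 1 of 639 miRNAs, with its log2 line difference (HR minus LR) in dorsal raphe on the x axis and in amygdala on the y axis; blue and red points are the 81 with an unadjusted interaction p of 0.05 or less, red the 24 named, and the dashed line marks equal differences. All 81 lie in the upper left or lower right quadrant, 67 and 14 of them.

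The excess of positive over negative interactions moved with the scaling and with 1 library. The median interaction over all 639 miRNAs was 0.09 with TMM, and scaling by library totals lowered it by 0.33 to -0.24. The split of 67 positive and 14 negative (82.7% positive) became 31 and 30 (50.8%) with library totals. It became 32 and 26 (55.2%) without LR dorsal raphe 4 and 43 and 26 (62.3%) without that library and HR amygdala 1. With only the libraries of over 3000000 counts it was 52 and 54 (49.1%), and with DESeq2 60 and 21 (74.1%). The former setting left out LR dorsal raphe 4, HR dorsal raphe 1, HR amygdala 1 and HR amygdala 2. HR amygdala then rested on replicates 3 and 4 alone. Which direction prevailed thus changed with the setting, and the values of single miRNAs below are to be read against shifts of that size.

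Over all 639 miRNAs the libraries of the 2 lines did not overlap for 56 (8.76%) in amygdala and 27 (4.23%) in dorsal raphe. Of the 24 miRNAs named for the lowest interaction p, this was so for 16 and 4. The 24 were chosen by p in these same libraries, which favours groups without overlap, so their share adds no support. miR-370-3p, an imprinted miRNA of the Dlk1-Dio3 cluster, which is expressed from the maternal chromosome, had the lowest interaction p. Its levels in LR dorsal raphe 1 to 4 were 769, 716, 819.9 and 2152 CPM, and in HR dorsal raphe 489.5, 555, 533 and 656 CPM. In amygdala they were 726, 537, 566 and 445 CPM in LR and 3092, 1762, 1345 and 1219 CPM in HR. The groups did not overlap in either region, with the LR libraries above the HR libraries in dorsal raphe and below them in amygdala. This was so for 2 miRNAs of 639 (0.313%), the other being miR-423-3p, and it also holds without the 2 libraries that stood apart.

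The fitted level of miR-370-3p was 3.26-fold higher in HR than in LR amygdala (log2 difference 1.71, SE 0.38) and 1.99-fold lower in HR than in LR dorsal raphe (log2 difference -0.99, SE 0.37). The interaction was 2.70 on the log2 scale (SE 0.53), a 6.50-fold ratio of folds, with an adjusted p of 0.0514. Without LR dorsal raphe 4 and HR amygdala 1 it was 1.71 (SE 0.28, adjusted p 0.0117), made up of 1.33 in amygdala and -0.38 in dorsal raphe. Same-numbered libraries of the 2 amygdala groups deviated together, and with the replicate number as a block in amygdala the adjusted p was 0.0434. The interaction of miR-370-3p was positive under every alternative run. The 5p arm of the same hairpin had an interaction of -0.12 (SE 0.42).

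miR-423 gave positive interactions on both arms. Levels of miR-423-3p were 750.3, 670.4, 618 and 1546 CPM in LR dorsal raphe, 459, 489.5, 519.6 and 563 CPM in HR dorsal raphe, 478, 336, 362 and 496.5 CPM in LR amygdala and 798, 566, 654 and 662 CPM in HR amygdala. As with miR-370-3p, the 2 lines were apart in both regions and in opposite order. The log2 line difference was 0.68 in amygdala and -0.82 in dorsal raphe, and the interaction 1.50 (SE 0.42, adjusted p 0.195). Without the 2 libraries it was 0.90 (SE 0.25). miR-423-5p had an interaction of 1.43 (SE 0.46, adjusted p 0.202), or 1.15 (SE 0.34) without the 2 libraries, and its LR and HR libraries did not overlap in dorsal raphe but did in amygdala.

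The 3p arms of miR-125b-1 and let-7b, which are in most tissues the scarcer arms of 2 abundant families, also had positive interactions. miR-125b-1-3p stood at 283, 173, 196.3 and 432 CPM in LR dorsal raphe and 95.0, 119, 185 and 152.4 CPM in HR dorsal raphe. In amygdala it stood at 135.9, 97.6, 118 and 111 CPM in LR and 251, 172, 256 and 199 CPM in HR. The lines did not overlap in amygdala and overlapped in dorsal raphe. The interaction was 1.90 (SE 0.44, adjusted p 0.141), or 1.42 (SE 0.34) without the 2 libraries. For miR-125b-2-3p, from the second miR-125b hairpin, it was 1.03, or 0.22 (SE 0.26) without the 2 libraries, and for the main arm miR-125b-5p -0.15.

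let-7b-3p had an interaction of 2.21 (SE 0.60, adjusted p 0.195), with a log2 line difference of 1.06 in amygdala and -1.16 in dorsal raphe, and 1.42 (SE 0.52) without the 2 libraries. Of the 4 other miRNAs tested that carry its seed, let-7f-1-3p had an interaction of 1.36 (1.05 without the 2 libraries), miR-98-3p 0.03, let-7c-2-3p -0.13 and miR-3596d -0.45. Of these, let-7f-1-3p averaged 24.9 CPM and miR-98-3p 13.6 CPM, so that 1 of the 2 better detected members had almost no interaction. let-7c-2-3p (4.05 CPM, SE 0.76) and miR-3596d (1.42 CPM) averaged near the floor, and their values say little. The main arm, let-7b-5p, had an interaction of -0.53 (SE 0.51). Low-level miR-320-5p and miR-347 were also higher in every HR than in every LR amygdala library: miR-320-5p had an interaction of 2.05 (SE 0.54) and miR-347 one of 3.03 (SE 0.83), both with an adjusted p of 0.195. Without the 2 libraries these were 1.40 and 2.40.

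For a second group, most of the interaction came from the amygdala and changed little without the 2 libraries. miR-22 is an abundant miRNA with 1 hairpin, and both arms showed it. miR-22-3p stood at 8127, 9849.6, 10659 and 10968 CPM in LR amygdala and 10552, 14773, 23294 and 24739 CPM in HR amygdala. In dorsal raphe it stood at 14305, 10946, 13448 and 17805 CPM in LR and 7591, 9356, 12174 and 10945 CPM in HR. The lines overlapped in both regions, in amygdala only through HR amygdala 1. The log2 line difference was 0.89 (SE 0.28) in amygdala and -0.50 (SE 0.28) in dorsal raphe.

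The interaction of miR-22-3p was 1.39 (SE 0.39, adjusted p 0.195) with all libraries and 1.34 (SE 0.27, adjusted p 0.0319) without the 2. For miR-22-5p the 4 HR amygdala libraries, at 147, 215, 298 and 280.0 CPM, lay above the 4 LR amygdala libraries, at 92.8, 137.3, 134.3 and 121 CPM. In dorsal raphe miR-22-5p was 188, 164, 207 and 105.7 CPM in LR and 130.2, 147, 168 and 161 CPM in HR, and the lines overlapped. Its interaction was 1.09 (SE 0.40, adjusted p 0.252), and 1.32 (SE 0.25, adjusted p 0.0285) without the 2 libraries. The line difference of miR-22-5p in dorsal raphe was -0.14 (SE 0.28).

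**Figure D2:**
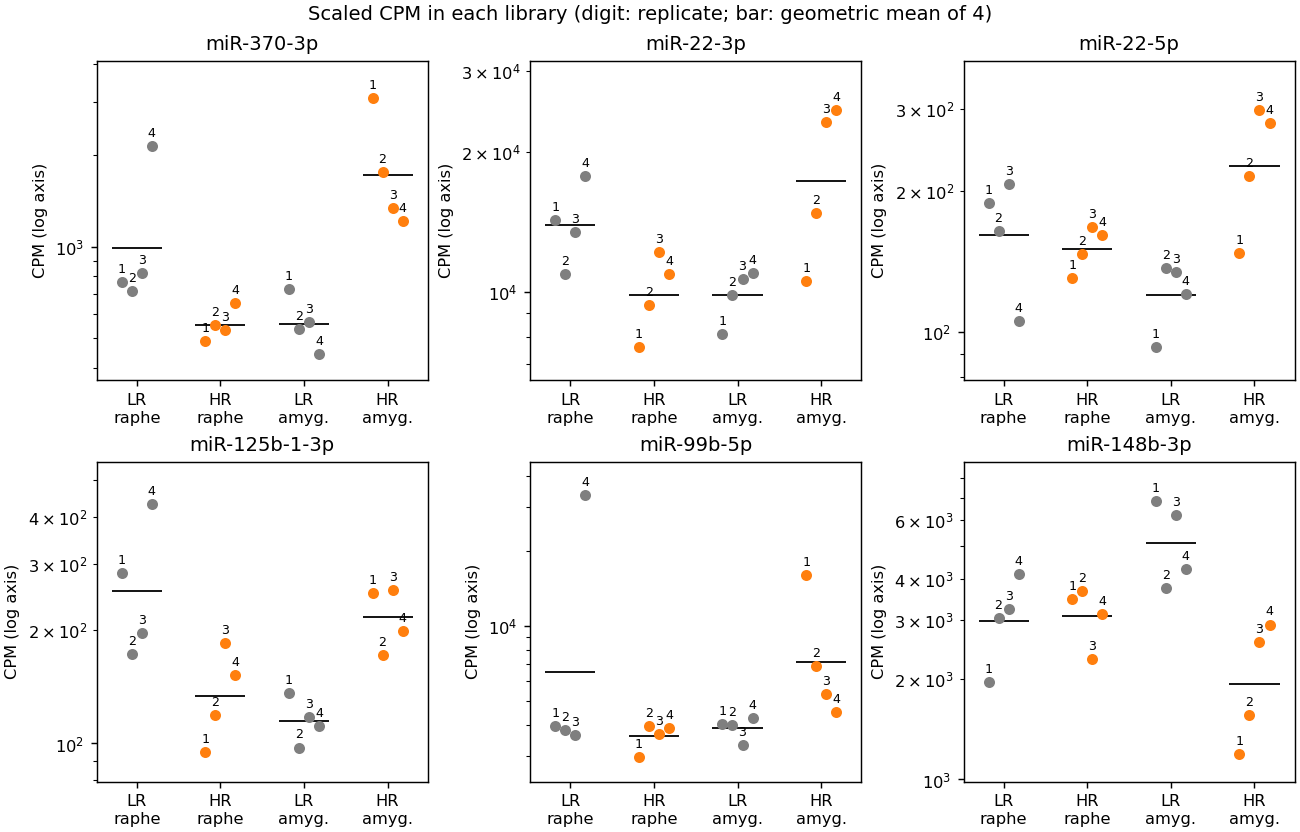
Scaled CPM (log axis) of 6 miRNAs in each of the 16 libraries by line and region; digits are replicate numbers and bars the geometric mean of 4. miR-370-3p has HR above LR in amygdala and below it in dorsal raphe, the 2 arms of miR-22 differ mainly in amygdala, miR-99b-5p is high mainly in LR raphe 4 and HR amygdala 1, and miR-148b-3p is lower in HR than in LR amygdala alone.

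miR-204 and miR-211, known for the choroid plexus and for pigmented epithelia, belong to the same group. miR-211-5p stood at 77.3, 268, 236 and 43.3 CPM in LR amygdala and 325, 616, 597 and 641 CPM in HR amygdala, with no overlap. In dorsal raphe it stood at 66.2 to 153.8 CPM in LR and 60.0 to 110.2 CPM in HR, with overlap. The log2 line difference was 1.80 (SE 0.47) in amygdala and -0.43 (SE 0.46) in dorsal raphe. The interaction was 2.24 (SE 0.66, adjusted p 0.195), and 2.10 (SE 0.64) without the 2 libraries.

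miR-204-3p had an interaction of 1.79 (SE 0.56, adjusted p 0.202) and miR-204-5p, which has the seed of miR-211-5p, one of 1.93 (SE 0.69, adjusted p 0.240). Without the 2 libraries these were 1.63 and 1.81. miR-204-5p averaged 4523 ± 3596 CPM (SD) in LR amygdala and 12898 ± 3603 CPM in HR amygdala, against 2554 ± 733 and 1905 ± 577 CPM in LR and HR dorsal raphe. miR-204 and miR-211 are on the marker list for choroid plexus and ciliated cells, which also holds miR-34b, miR-34c and miR-449. The 12 members tested summed to 1342, 6166, 12090 and 20813 CPM over the LR amygdala libraries in rising order, and to 12257, 23815, 24839 and 29011 CPM over the HR amygdala libraries. They summed to 3821 to 8235 CPM in LR and 4077 to 7141 CPM in HR dorsal raphe. The LR amygdala libraries thus differed among themselves more than the dorsal raphe libraries did, and at most 2 of the 12 members had a count of 0 in some library of a group. The other 9 members had interactions from -0.64 to 1.08, none with a p of 0.05 or less. How much of the interaction of miR-204 and miR-211 goes with the amount of such tissue in a sample was not tested.

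miR-99a-5p and miR-455-5p had an amygdala difference and almost none in dorsal raphe. miR-99a-5p stood at 21168, 25476, 25485 and 25741 CPM in LR amygdala and 50623, 55703, 46630.3 and 36092 CPM in HR amygdala. In dorsal raphe it stood at 29424 to 38576 CPM in LR and 26238 to 37731 CPM in HR. The log2 line difference was 0.95 (SE 0.22) in amygdala and -0.05 (SE 0.22) in dorsal raphe, and the interaction 1.00 (SE 0.31, adjusted p 0.202). miR-455-5p likewise had 0.96 (SE 0.25) in amygdala, -0.12 (SE 0.25) in dorsal raphe and an interaction of 1.07 (SE 0.36, adjusted p 0.214). For both, the sign of the small dorsal raphe difference turned positive with library totals as the scaling and without the 2 libraries, while the interaction kept its sign.

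Among the 24 named miRNAs the reverse order was seen in 3, miR-148b-3p, miR-194-5p and miR-3593-5p, which were lower in HR than in LR amygdala. miR-148b-3p, of the miR-148 and miR-152 family, stood at 6836, 3744, 6218 and 4285 CPM in LR amygdala and 1195, 1565, 2578 and 2916 CPM in HR amygdala, with no overlap. In dorsal raphe it stood at 1959.7 to 4139 CPM in LR and 2292 to 3679.9 CPM in HR. The log2 line difference was -1.35 (SE 0.33) in amygdala and 0.02 (SE 0.32) in dorsal raphe. The interaction was -1.38 (SE 0.46, adjusted p 0.214), and -1.49 (SE 0.38) without the 2 libraries. miR-152-3p, with the same seed, had an interaction of 0.15 (SE 0.47), and the other arm, miR-148b-5p, one of 0.68 (SE 0.32).

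miR-194-5p, best known from liver and gut, stood at 242, 464, 352 and 540.7 CPM in LR amygdala and 72.4, 92.8, 194 and 203 CPM in HR amygdala. Its 8 dorsal raphe libraries ran from 139 to 1004 CPM, and LR dorsal raphe 4 was the lowest of them. The log2 line difference was -1.50 (SE 0.47) in amygdala and 0.40 (SE 0.46) in dorsal raphe, with an interaction of -1.90 (SE 0.65, adjusted p 0.240). miR-3593-5p had -1.39 (SE 0.47) in amygdala, 0.71 (SE 0.47) in dorsal raphe and an interaction of -2.10 (SE 0.66, adjusted p 0.202), the lowest of all 639. Without the 2 libraries these interactions were -1.48 and -1.98. Of the 14 negative interactions with a p of 0.05 or less, 13 kept such a p without the 2 libraries, against 32 of the 67 positive ones.

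For another group the size of the interaction rested on LR dorsal raphe 4 and HR amygdala 1. miR-99b-5p, of the miR-99 and miR-100 family, stood at 3949, 3804, 3643 and 33616 CPM in LR dorsal raphe and 2966, 3972, 3666 and 3892 CPM in HR dorsal raphe. In amygdala it stood at 4031, 3983, 3323 and 4255 CPM in LR and 15965, 6877, 5325 and 4516 CPM in HR. Only replicate 4 set LR dorsal raphe apart, while in amygdala every HR library was above every LR library. The interaction was 2.70 (SE 0.86, adjusted p 0.202) with all libraries and 0.50 (SE 0.24) without the 2.

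miR-100-5p, with the same seed, had an interaction of 2.46 (SE 0.79, adjusted p 0.202) and 0.58 (SE 0.25) without the 2 libraries. Its LR dorsal raphe libraries stood at 10998, 10480.0, 12250.2 and 87755 CPM. miR-485-5p, another Dlk1-Dio3 miRNA, stood at 623, 477, 490.4 and 4943 CPM in LR dorsal raphe and 1227, 518, 508 and 442 CPM in HR amygdala. Its interaction was 3.05 (SE 0.89, adjusted p 0.195), and 0.88 (SE 0.32) without the 2 libraries. miR-188-5p belonged here too, with 3.09 (SE 0.91) and 1.05 (SE 0.49), as did miR-770-3p with 2.78 (SE 0.80) and 1.17 (SE 0.49).

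The interactions of miR-504 (2.12), miR-667-5p (2.23), miR-296-3p (2.00) and miR-543-3p (1.08) became 0.93, 0.78, 1.43 and 0.71 without the 2 libraries. miR-543-3p was the one of these whose lines did not overlap in dorsal raphe, at 1670.2, 1276, 1417 and 2109.7 CPM in LR and 862, 879, 903 and 1079 CPM in HR. It was also the one of the 24 with the smallest amygdala difference among the positive ones, 0.28 (SE 0.25), beside -0.80 (SE 0.25) in dorsal raphe.

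All 24 named miRNAs kept the sign of the interaction without the 2 libraries, 22 of them with an unadjusted p of 0.05 or less, and 20 kept opposite signs of the line differences. The median size of the 24 interactions went from 2.07 to 1.25, and 23 became smaller. Of the 81 with a p of 0.05 or less, 80 kept the sign and 45 kept such a p. These 45 are 55.6% of the 81 and 65.2% of the 69 that had such a p without the 2 libraries. Of all 638 miRNAs tested both ways, 476 kept the sign and 64 had such a p in the same direction. The 24 and the 81 were chosen by p in data that hold the remaining libraries, which favours keeping sign and p. The opposite sign of the line differences was kept by 65 of the 81.

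**Figure D3:**
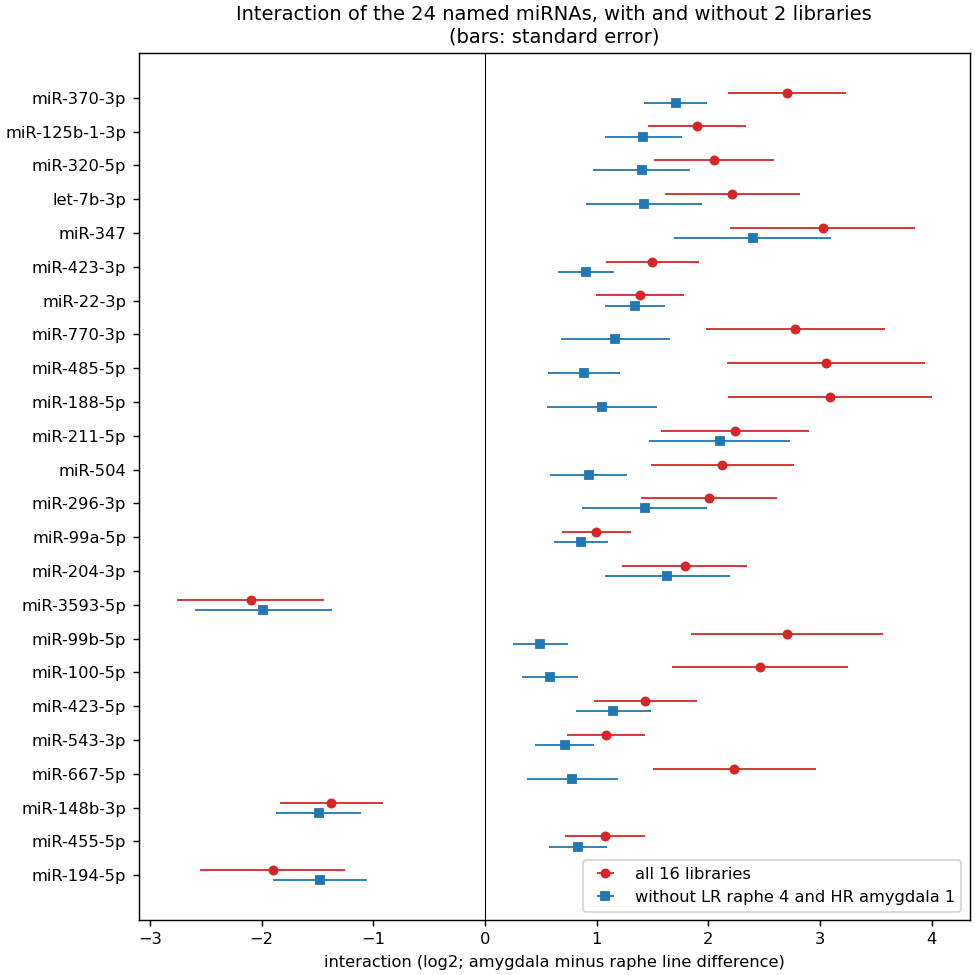
Log2 interaction of the 24 named miRNAs with its standard error as bars, over all 16 libraries (red circles) and without LR raphe 4 and HR amygdala 1 (blue squares). All 24 keep their side of 0, miR-22-3p, miR-211-5p and miR-148b-3p move little, and miR-99b-5p goes from 2.70 to 0.50.

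The lists of miRNA families, clusters and cell types were set beside all 639 miRNAs, of which 54.9% had a positive interaction, with a median of 0.09. The imprinted Dlk1-Dio3 cluster had 86 members tested, 53 of them positive (61.6%), with a median of 0.22. Of these, 14 positive and 3 negative ones had a p of 0.05 or less, against 67 and 14 of all 639. miR-370-3p (2.70), miR-770-3p (2.78), miR-485-5p (3.05), miR-543-3p (1.08) and miR-667-5p (2.23) belong to it, and so do miR-539-3p (-1.82), miR-377-5p (-1.41) and miR-136-5p (-0.93). Neighbours had other values. In RefSeq (GRCr8) the hairpins of miR-341 and miR-1188 lie within 10000 bases of miR-370, and miR-341 had an interaction of 0.62 (SE 0.39), miR-1188-5p 0.64 (SE 0.38) and miR-370-5p -0.12 (SE 0.42). With both libraries left out, the cluster had a median of 0.14 and 9 positive and 3 negative members with such a p. Over all 648 miRNAs these were -0.06, 43 and 26.

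The miR-99 and miR-100 list had the highest median of the 23 lists, 1.35 over 6 members, of which 5 were positive and 4 had a p of 0.05 or less. Without the 2 libraries its median was 0.34 and 2 members had such a p. Within 10000 bases of miR-99b or miR-100 in RefSeq (GRCr8), the let-7 and miR-125 arms had interactions from -0.69 (miR-125a-5p) to 0.49 (miR-125a-3p). For miR-22 the median of both arms was 1.24, and 1.33 without the 2 libraries. The let-7 and miR-98 list had 10 of 18 members positive and a median of 0.07, or 12 of 18 and 0.24 without the 2 libraries. The miR-29 list had 2 of 7 and -0.35, or 4 of 7 and 0.04 without them.

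Among the cell type lists, oligodendrocyte miRNAs (miR-219 and miR-338, which act in the making of myelin) were positive for 5 of 5 members, with a median of 0.88 and 2 members with a p of 0.05 or less. miR-219-2-3p stood at 7752, 9763, 7947 and 35332 CPM in LR dorsal raphe and at 5997 to 6493 CPM in HR dorsal raphe, and its interaction was 1.47 (SE 0.62), or 0.49 (SE 0.40) without the 2 libraries. miR-338-5p and miR-338-3p went the other way, from 0.88 and 0.86 to 1.12 (SE 0.43) and 1.07 (SE 0.48), so that without the 2 libraries the list had a median of 0.72 and 2 other members with such a p. The list summed to 13942 to 40552 CPM in LR and 10274 to 12096 CPM in HR dorsal raphe, and to 4961 to 13597 CPM in LR and 7113 to 11554 CPM in HR amygdala, with no member at 0 in any library. The Hox cluster list had 2 of 6 members with such a p. These were miR-10a-5p (2.39) and miR-10b-5p (2.57), which became 0.50 and 0.42 without the 2 libraries. The Hox list median went from 0.54 to -0.06. miR-196a-3p went from -1.42 to -1.99 (SE 0.84) and was then the 1 member with such a p.

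The neuron-enriched list had 7 of 15 members positive and a median of -0.09, with 2 members at a p of 0.05 or less in each direction: miR-129-5p (1.76) and miR-128-3p (1.06) against miR-124-5p (-1.35) and miR-153-3p (-1.71). With the 2 libraries left out, only the negative ones kept such a p, at -0.96 and -1.19, while miR-129-5p had 0.37 and miR-128-3p 0.42, and the list median was -0.24. The vascular list had 3 of 7 positive and a median of -0.52, the microglia and leukocyte list 5 of 12 and -0.10, and the muscle list 4 of 10 and -0.03. The erythrocyte list had 3 of 4 positive and a median of 0.08, and the epithelial and pituitary list 9 of 14 and 0.13. Leaving out the 2 libraries, the vascular median was -0.16, the microglia and leukocyte one -0.08, the muscle one -0.06 and the erythrocyte one 0.35, and the epithelial and pituitary list had 4 of 14 positive and a median of -0.24. The serotonin 2C receptor is one through which serotonin acts on neurons. The 7 miRNAs of its gene had 4 positive members and a median of 0.34 (0.31 without the 2 libraries). None of the 7 had such a p. They summed to 1165 to 40059 CPM in LR and 24064 to 35702 CPM in HR amygdala, so the LR amygdala libraries differed widely among themselves. In dorsal raphe the sums were 899 to 3388 CPM in LR and 847 to 2170 CPM in HR. The choroid plexus and ciliated cell list had 9 of 12 positive, 3 with such a p and a median of 0.42, which was 0.70 without the 2 libraries.

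**Figure D4:**
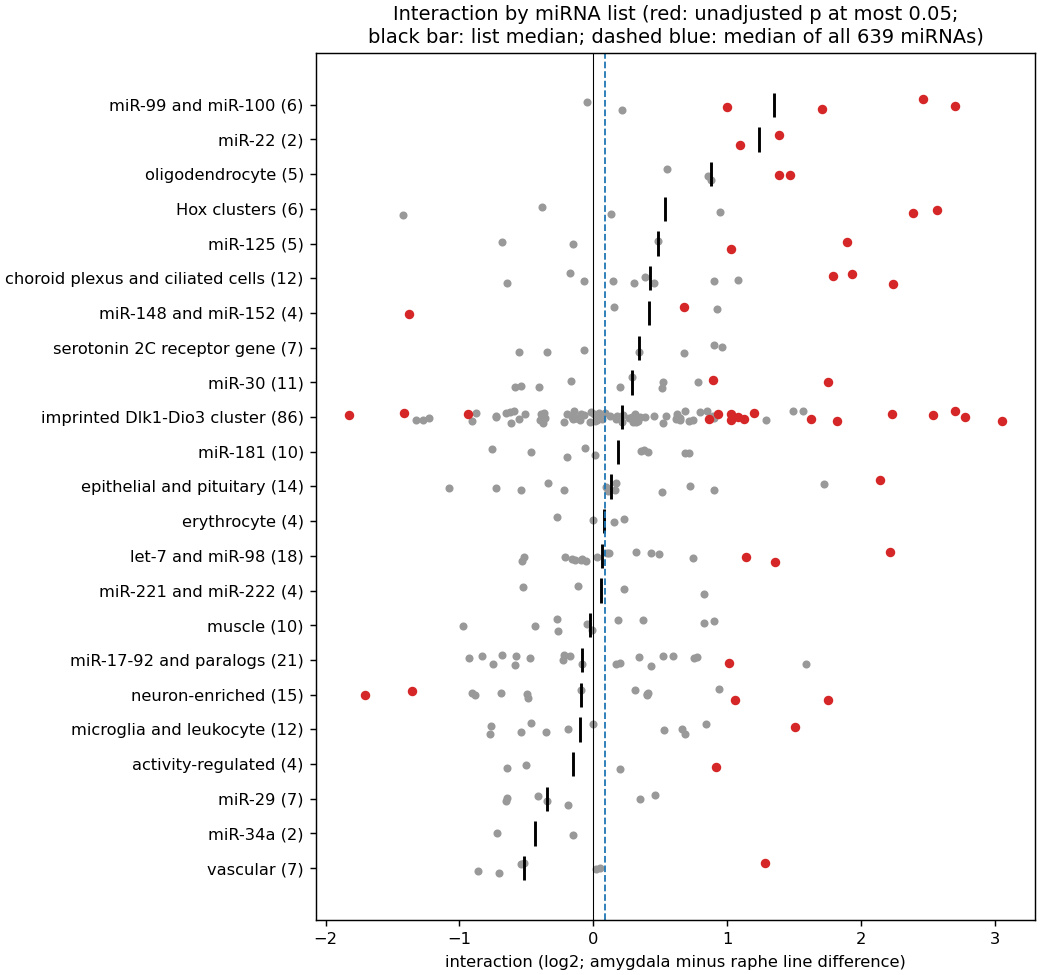
Log2 interaction of each member of the 23 lists (number tested in brackets); red points have an unadjusted p of 0.05 or less, black bars are list medians, and the dashed line is the median of all 639 miRNAs, 0.09. The miR-99 and miR-100 list has the highest median, 1.35, and the vascular list the lowest, -0.52.

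The interaction also went with base composition. Over the 569 miRNAs with a RefSeq sequence (89.0% of those tested) it had a Pearson correlation of 0.19 and a Spearman correlation of 0.17 with the GC percentage of the mature sequence, as a description of miRNAs from the same libraries. The median interaction was -0.05 for the 112 miRNAs below 40% GC and 0.33 for the 80 miRNAs of 60% or more. A positive interaction with a p of 0.05 or less was found for 6.25% of the former and 16.3% of the latter. Among libraries, the slope of the deviation on GC was highest in HR amygdala 1 (0.21 log2 units for 10 points of GC) and LR dorsal raphe 4 (0.14). With a correction for GC within each library, 60 of these miRNAs had a p of 0.05 or less, 53 of which were among the 66 without it, and edgeR called 0. The correction was chosen after the values were seen, and the part of GC content in the interaction was otherwise not tested.

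Line differences that had the same sign and did not overlap in either region were seen for 4 miRNAs (0.626%), miR-150-5p, miR-323-3p, miR-382-3p and miR-493-5p, all lower in HR rats. Their interactions were -0.54 (SE 0.44), 0.38 (SE 0.35), 0.27 (SE 0.43) and 0.68 (SE 0.47). Line differences had the same sign for 167 of the 407 miRNAs with a mean of at least 10 CPM. Among these 167, miR-6331 (1.26, SE 0.62), miR-92a-3p (0.78, SE 0.39) and miR-28-5p (0.69, SE 0.37) had the lowest interaction p-values, and were picked by that value. miR-92a-3p, of the miR-17-92 cluster, differed mainly in dorsal raphe, at 771, 803, 628 and 1402 CPM in LR and 473, 446, 466 and 418 CPM in HR, with no overlap. In amygdala it stood at 455 to 804 CPM in LR and 437 to 578 CPM in HR, with overlap.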

How the data were processed

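Small RNA was sequenced from 16 tissue samples. The values are read counts per mature miRNA as deposited by the authors, in 16 tables of 722 rat miRNAs; cutadapt 1.3.1, Bowtie2 and bedtools 2.14.2 are named in the submitters' processing notes, while build and multi-mapping treatment are not given in the sources used. Chi-square tests of all 120 pairs of libraries found no duplicate (at least 50.5 per degree of freedom).

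The counts were filtered with filterByExpr (minimum count 10, minimum total 15), which dropped 83 miRNAs with at most 0.0169% of a library's counts, and then fitted in edgeR 4.0.16 (R 4.3.3), with TMM scaling, 4 group means and robust quasi-likelihood tests (biological coefficient of variation 0.426). Adjustment was by Benjamini-Hochberg over all 639 miRNAs. Alternatives used DESeq2 1.42.0, limma 3.58.1, other scalings, filters and libraries.

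Named are the 24 miRNAs of lowest interaction p with a mean of at least 10 CPM, since none passed the adjusted threshold of 0.05, and further the 6 of lowest p of each line difference and the 2 of lowest interaction p of each of 23 lists; other arms, neighbours and miRNAs of the same seed are given beside them. The members and lists were chosen with earlier results of these data known. Same-numbered libraries of LR and HR amygdala had correlated deviations from their group means (0.69, 0.29, 0.21 and 0.51 over miRNAs, all above 0.1). They were taken as pairs only in the alternative with a replicate block in amygdala, and the main test used no pairing. For HR dorsal raphe and HR amygdala the correlations were 0.67, -0.27, 0.35 and 0.53. Every other pair of groups had at least 1 correlation of 0.1 or less, and the meaning of the numbers is not in the labels.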

Additional observations from a re-analysis of the deposited data

Results flagged for a closer look

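Dixon's test was applied to the log2 levels of 96 groups of 4 libraries, the 24 miRNAs named for the interaction in 4 groups each. The levels printed here are CPM. In 14 groups a library was set apart from the other 3 by a gap beyond the test's 95% critical value. Chance gives about 1 in 20 for independent groups not chosen by their values. The 14 cannot be read against that rate, since the groups share the same libraries and the 24 miRNAs were picked by interaction p. A high LR dorsal raphe library raises the interaction, so the choice can favour such miRNAs. LR dorsal raphe 4 was the highest of its group in 7 of the 14. It stood at 2152 CPM for miR-370-3p (others 716 to 819.9), 4943 for miR-485-5p (477 to 623), 72.1 for miR-188-5p (10.3 to 12.9) and 33616 for miR-99b-5p (3643 to 3949). It stood at 87755 CPM for miR-100-5p (10480.0 to 12250.2), 373 for miR-423-5p (181.98 to 192.9) and 223.5 for miR-667-5p (42.7 to 50.9). For miR-770-3p it stood at 2079 CPM (322 to 469), a gap not beyond the critical value on the log2 scale. The 7 are thus not all the miRNAs for which this library was far above its group in CPM.

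HR amygdala 1 was highest for miR-485-5p, at 1227 CPM (442 to 518), and lowest for miR-211-5p, at 325 (597 to 641). HR amygdala 4 was lowest for miR-296-3p, at 4.47 CPM (7.76 to 7.99), and for miR-3593-5p, at 69.9 (185.8 to 219.2). LR amygdala 1 was highest for miR-485-5p, at 395 CPM (277 to 290.5), and lowest for miR-99a-5p, at 21168 (25476 to 25741). LR amygdala 2 was highest for miR-347, at 20.9 CPM (8.02 to 9.33).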

How the results depend on the processing

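The 0 interactions called became 22 with DESeq2, 22 with library depth as a covariate (11 shared between these), 8 with limma-voom and library weights, 1 without a filter on low counts, 1 with only the miRNAs that have a sequence, 3 without both LR dorsal raphe 4 and HR amygdala 1, 3 with libraries of over 3000000 counts, and 0 to 1 without 1 library. The single call was miR-370-3p each time, with an adjusted p of 0.0408 without the filter, 0.0482 without LR dorsal raphe 1 and 0.0336 without HR amygdala 4. With a replicate block over all groups there were 0 calls and 68 interactions with a p of 0.05 or less, and with the block in amygdala only 1 call and 89; it changed no other call. With the depth covariate 87 positive and 56 negative interactions (22.4% of those tested) had such a p, against 67 and 14, and in all 54 to 98 did without 1 library.

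The 0 line differences called in amygdala became 2 with library totals, 19 with DESeq2, 15 with library weights, 8 for miRNAs of at least 10 CPM, 32 with the depth covariate, 9 without both libraries, 30 with libraries of over 3000000 counts and 0 to 2 without 1 library (2 without LR dorsal raphe 4). In dorsal raphe they became 3 with library weights. The cause of these changes was not tested. In the setting with libraries of over 3000000 counts, HR amygdala rested on replicates 3 and 4 alone. The line differences in dorsal raphe with a p of 0.05 or less were 70, and 23 without LR dorsal raphe 4.

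Of 731 values of the 24 named interactions under 31 alternatives 0 reversed. The 24 were picked by interaction p in these libraries, and the alternatives refit the same counts or most of them. A kept sign was thus favoured by the choice and adds no support. Reversals occurred for 8 other named miRNAs, among them miR-183-5p (2.144 with all libraries), miR-1298 (0.90) and miR-34a-5p (-0.72). miR-6321 (0.07) became -0.26 with library totals, -0.14 with limma-voom, -0.12 with library weights, -0.0356 without the filter, -0.40 with the depth covariate, -1.02 without both libraries, -2.41 with deep libraries, -0.0145 with GC correction and -0.63 to 0.95 without 1 library. With library totals miR-144-3p became -0.0626, miR-144-5p -0.15 and miR-222-3p -0.12, and without 1 library these ran from -0.39 to 0.37, -0.21 to 0.22 and -0.0413 to 0.25. With deep libraries miR-1298 became -0.074, miR-183-5p -0.11, miR-221-3p 0.24 and miR-34a-5p 0.10. The cause of these reversals was not tested. In LR dorsal raphe 4, the floor of 3 counts was 2.40 scaled CPM. Over all libraries miR-1298, miR-221-3p, miR-34a-5p, miR-183-5p and miR-6321 averaged 11924.5, 1343.6, 829, 94.2 and 23.6 CPM.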
